A study of Mus musculus with 8 samples.

Results

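The 9 genes described here encode products that secretory cells of the airway release into the fluid and mucus lining the conducting airways. They were taken by symbol from the 52195 genes of a table of 8 bulk RNA sequencing libraries, and each symbol matched 1 row. The members are the secretoglobins Scgb1a1, Scgb3a1, Scgb3a2 and Scgb1c1, the BPI fold proteins Bpifa1 and Bpifb1, the gel-forming mucins Muc5b and Muc5ac, and lactotransferrin, Ltf. The libraries held polyadenylated RNA of bulk kidney, lung, liver and small intestine, 2 per tissue, from mice aged 6 to 10 weeks. The strain is C57BL/6 in the labels and, for male animals, C57BL/6J in the study's methods. All groups share strain and age, and no treatment or transgene is given for any of them. The study states that the libraries of a tissue came from separate mice and that all 4 organs were taken from each animal. Libraries of different tissues may thus share mice, though the number of mice is not given. The sources used here do not say which replicate number belongs to which mouse, and the 8 libraries were fitted as independent. The tissues were excised, washed and ground into powder. Whether whole organs were used, and whether the trachea was left out, is not given in the sources used here. No library is labelled as trachea or as sorted airway cells, and airway cells are a minor part of lung tissue. In bulk tissue, fewer cells of a type and less RNA per cell cannot be told apart.

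The conducting airways are lined by ciliated cells and by secretory cells, mainly club cells and, in smaller number in mice, goblet cells. Club cells release secretoglobins, small dimeric proteins of the airway fluid. Goblet cells and submucosal glands release gel-forming mucins, which cilia carry out of the lung together with trapped particles. BPI fold proteins and lactotransferrin are secreted defence proteins that bind lipids or iron. Levels are given as fragments per kilobase of exon, scaled to library size (FPKM), a unit corrected for gene length, so that levels of different genes can be set side by side.

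The number of reads on genes was 9764426 and 12427339 in the lung libraries and between 9164187 and 21444675 over all 8. The labelled tissue of the lung libraries was checked against markers. The summed FPKM of 4 alveolar type 2 genes was 15189 and 13195 in lung against at most 25.7 elsewhere, and that of 5 ciliated cell genes was 300.3 and 323.6 against at most 10.99. Each value of a member corresponded to a whole number of reads, and these numbers are given where they are small. Intervals on ratios of reads cover counting error only, not differences between mice.

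Members were compared in lung against the mean of the other 3 tissues with limma on log2(FPKM + 1), which compresses the differences of genes with low levels. Genes with an adjusted p (Benjamini-Hochberg) below 0.05 and a log2 difference above 1 were called. Of the 9 members, 8 reached an FPKM of 1 in 2 or more libraries and were tested, and these 8 were called higher in lung. Over the 16328 genes tested, 40.7% were called higher in lung. Of these 8 members, 6 would not have entered the test without their lung values, so neither the count nor the median difference supports anything by itself. The median log2 difference was 5.70 for the 8 members and 0.82 for all genes tested. After median-of-ratios scaling the median of all genes was -0.02 and 14.6% of genes were called higher in lung. The same 8 members were among them, with log2 differences from 1.70 for Muc5b to 9.26 for Scgb1a1. Against kidney, liver and small intestine taken singly, the 8 members were again higher in lung, where 41.4%, 55.5% and 30.6% of all genes were. Both lung libraries lay above the other 6 for the same 8 members, as they did for 51.4% of the genes tested. An exact permutation test, which set every possible pair of libraries against the other 6, gave a two-sided p = 0.0357 for each of the 8, the smallest that this design allows. For 5 of the 8, which were below an FPKM of 1 in all libraries outside lung, the filter itself had fixed this p.

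**Figure D1:**
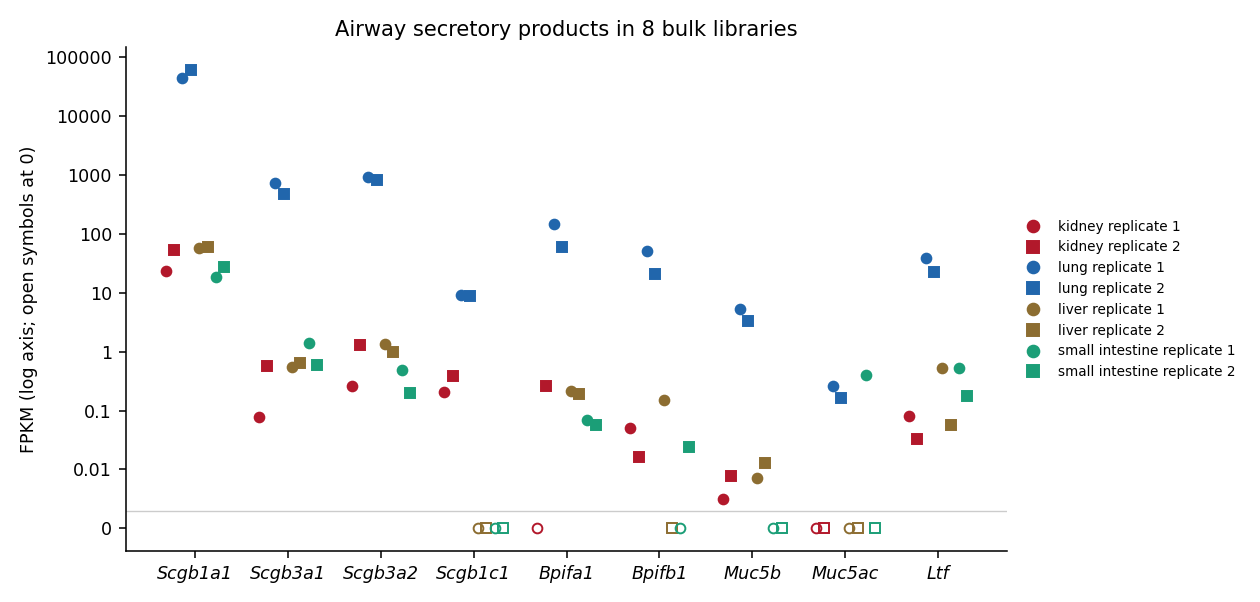
FPKM (log axis) of the 9 members in each of the 8 libraries, with 1 point per library, colours for the 4 tissues and open symbols for values of 0. The lung points of 8 members lie above the points of all other libraries, from 44164 and 59746 for Scgb1a1 down to 5.35 and 3.29 for Muc5b, while the lung points of Muc5ac lie below its small intestine replicate 1.

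The secretoglobins held the highest levels. Scgb1a1, the main secreted protein of club cells (GRCm38 chromosome 19, 9083636 to 9087958, minus strand), was the highest of all genes in both lung libraries. Its FPKM there was 44164 and 59746, with a log2 difference from the other tissues of 10.44 (SE 0.30, adjusted p = 3.09e-07, limma with Benjamini-Hochberg adjustment). Its reads numbered 205268 and 353423 in lung. Elsewhere they numbered 237 and 431 (kidney), 249 and 294 (liver) and 83 and 146 (small intestine). Its level in lung was 904-fold that in liver, the next tissue, in pooled reads corrected for depth (95% counting interval 831 to 985). Scgb1a1 alone took 8.46% and 11.5% of the summed FPKM of the lung libraries and 2.10% and 2.84% of their reads. These shares differ because its exons span only 476 bases, and FPKM divides by length. Of the summed FPKM of the 9 members in lung, Scgb1a1 made up 95.8% and 97.7%, so the other 8 members together reached 1926 and 1426 FPKM.

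Scgb3a2 and Scgb3a1, secretoglobins of the airway epithelium, came next. Scgb3a2 had an FPKM of 933 and 834 in lung. Elsewhere it was at 0.265 and 1.31 (kidney), 1.36 and 0.991 (liver) and 0.486 and 0.201 (small intestine). Its lung libraries lay close together and far above the rest, with a ratio to liver of 752 (487 to 1232). The log2 difference of lung from the other tissues was 9.02 (SE 0.24, adjusted p = 2.97e-07, limma with Benjamini-Hochberg adjustment). Scgb3a1 had an FPKM of 741 and 478 in lung. Elsewhere it was at 0.0780 and 0.580 (kidney), 0.547 and 0.648 (liver) and 1.43 and 0.591 (small intestine). Its values outside lung rested on 1 to 8 reads per library, and the ratio of lung to small intestine, the next tissue, was 612 (350 to 1185). Its log2 difference was 8.54 (SE 0.25, adjusted p = 3.29e-07, limma with Benjamini-Hochberg adjustment). In lung, the mean ± SD was 883 ± 70.5 for Scgb3a2 and 609 ± 186 for Scgb3a1 (n = 2), so Scgb3a2 was the higher in both libraries, though the gap was far wider in replicate 2.

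Scgb1c1, a secretoglobin known from nasal mucosa (GRCm38 chromosome 7, 140845547 to 140846769, plus strand), was the lowest of the 4. Its FPKM was 9.003 and 8.84 in lung, from 40 and 50 reads, and 0.205 and 0.381 in kidney, from 2 and 3 reads. No read was counted in liver or small intestine, where 0 reads allow an FPKM of up to 0.719 at the lowest depth. Lung exceeded kidney 31.4-fold (13.0 to 99.2), and the log2 difference from the other 3 tissues was 3.19 (SE 0.11, adjusted p = 4.59e-07, limma with Benjamini-Hochberg adjustment). The gene overlaps C330022C24Rik on the opposite strand, which was at 0 in lung and kidney. Whether the counting used strand is not given in the sources used here, so reads of such partners cannot be told apart.

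The family beyond the members was almost silent. The table holds 69 rows whose symbol starts with Scgb, of which 61 were at 0 in every library. An FPKM of 1 or more in any library was reached by 6, the 4 members and the pair Scgb2b15 and Scgb2b17. The pair had identical values, 0.631 and 1.56 in small intestine, and equal exon lengths of 508 bases at different places on chromosome 7, so how reads were divided between these near copies is uncertain.

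Bpifa1 and Bpifb1 are secreted BPI fold proteins of the airway surface, and Bpifa1 is known to bind lipids and to act on the epithelial sodium channel. Both lie on GRCm38 chromosome 2, plus strand, Bpifa1 from 154142880 to 154149219 and Bpifb1 from 154190818 to 154220369. For 5 of the 9 members the RefSeq table of promoters (GRCm38.p6) held an entry, with 6 entries in all, since Bpifb1 has 2 start sites. Scgb1a1, Scgb3a2, Muc5b and Muc5ac had none. The 250 bases before each start site were searched on both strands for the forkhead motif, for the NKX2-1 motif CAAGTG and for the TATA box TATAAA. The forkhead motif was spelled as TGTTTAC, with TATTTAC as a variant, with TGTTTGC as another and with TATTTGC as the last. The 4 stretches shown, all of the plus strand, are those of Bpifa1 and Bpifb1, which had the highest ratios of lung replicate 1 to replicate 2 among the members, and of Scgb3a1 for comparison. Capitals mark the motifs found.
Bpifa1, chr2:154142630-154142879: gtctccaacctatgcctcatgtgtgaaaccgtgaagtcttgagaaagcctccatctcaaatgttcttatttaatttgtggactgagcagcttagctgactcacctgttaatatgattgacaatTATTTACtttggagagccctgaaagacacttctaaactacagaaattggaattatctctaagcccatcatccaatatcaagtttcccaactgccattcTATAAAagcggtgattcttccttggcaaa
Bpifb1 downstream start, chr2:154200130-154200379: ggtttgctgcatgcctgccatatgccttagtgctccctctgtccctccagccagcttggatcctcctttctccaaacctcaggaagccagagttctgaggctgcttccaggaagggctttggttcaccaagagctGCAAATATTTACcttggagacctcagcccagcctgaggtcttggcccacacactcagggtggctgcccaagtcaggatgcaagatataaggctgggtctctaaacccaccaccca
Bpifb1 upstream start, chr2:154190568-154190817: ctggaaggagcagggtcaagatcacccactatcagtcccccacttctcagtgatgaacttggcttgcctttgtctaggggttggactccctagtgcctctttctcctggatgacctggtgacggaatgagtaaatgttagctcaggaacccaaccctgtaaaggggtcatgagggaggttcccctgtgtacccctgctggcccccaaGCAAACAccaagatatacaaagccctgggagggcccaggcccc
Scgb3a1, chr11:49663345-49663594: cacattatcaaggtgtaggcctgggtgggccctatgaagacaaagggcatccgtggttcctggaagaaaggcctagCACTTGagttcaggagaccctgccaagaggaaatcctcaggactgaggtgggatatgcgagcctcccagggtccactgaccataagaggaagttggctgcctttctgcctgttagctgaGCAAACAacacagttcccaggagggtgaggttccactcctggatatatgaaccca

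In Bpifa1 the forkhead motif TATTTAC lay 127 to 121 bases before the start and TATAAA 29 to 24 bases before it. At the downstream start of Bpifb1 the same TATTTAC lay 110 to 104 bases before the start and overlapped a TATTTGC of the opposite strand. At the upstream start of Bpifb1 and in Scgb3a1 a TGTTTGC lay on the opposite strand, and Scgb3a1 also held CAAGTG on that strand, 174 to 169 bases before its start. A forkhead motif was found in 5 of the 6 entries of members, the exception being Ltf, and in 11.9% of the 32851 promoters of the table. CAAGTG was in 1 of the 6 against 11.6% of promoters, and TATAAA in 1 of the 6 against 12.4%. Around TATTTAC, Bpifa1 and the downstream start of Bpifb1 share the run TATTTACNTTGGAGA, where N is any base, which was found in 2 of the 32851 promoters, these 2. The motifs and the run were chosen with the members' promoters in view. A match in the sequence is not evidence that a factor binds there.

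Bpifa1 had an FPKM of 147 and 59.999 in lung, from 2213 and 1152 reads, and at most 0.262 elsewhere, from at most 7 reads. Bpifb1 had an FPKM of 51.1 and 20.6 in lung, from 1804 and 928 reads, and at most 0.151 elsewhere, from at most 5 reads. For both, lung replicate 1 stood well above replicate 2 and both stood above all other libraries. The ratio of lung to liver, the next tissue, was 493 (226 to 1343) for Bpifa1 and 480 (205 to 1479) for Bpifb1. The log2 difference was 6.40 (SE 0.31, adjusted p = 1.63e-06) for Bpifa1 and 5.01 (SE 0.30, adjusted p = 3.88e-06) for Bpifb1, both by limma with Benjamini-Hochberg adjustment.

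Of the 15 genes of the BPI fold family, 13 lie in a cluster of 446 kb on chromosome 2. Bpifa1, Bpifb1 and Bpifb5, at positions 8, 10 and 11 in the order of the chromosome, were the only genes of the family at 1 FPKM or more in any library. Bpifb5, next to Bpifb1, was at 3.82 and 2.70 in lung and at most 0.0539 elsewhere. Bpifa5, which lies between Bpifa1 and Bpifb1, was at 0 in all libraries, and 5 genes of the family were at 0 everywhere. Bpifa2, a product of salivary glands, was at 0.153 and 0.401 in lung.

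**Figure D2:**
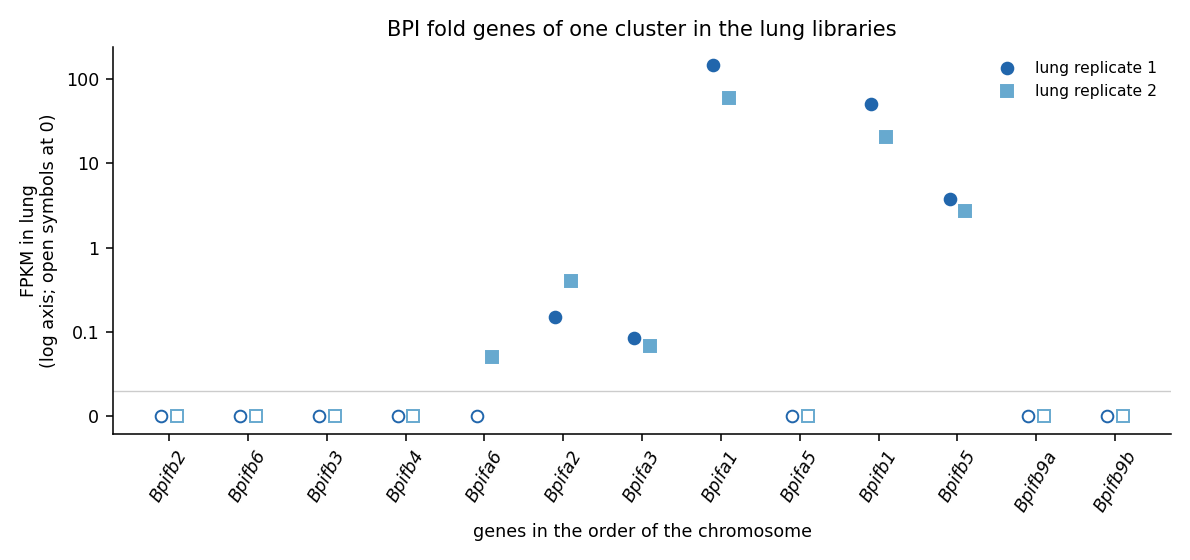
FPKM in lung (log axis) of the 13 BPI fold genes of the cluster in their order along the chromosome, with 1 symbol per lung library and open symbols for 0. Bpifa1, Bpifb1 and Bpifb5 stand above 1 FPKM, and the genes between and around them are at or below 0.401.

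The gel-forming mucins Muc5b and Muc5ac are neighbours on GRCm38 chromosome 7, plus strand, from 141839070 to 141873084 and from 141788972 to 141819231. Muc5b, the mucin of healthy airways that mucociliary clearance needs, was at 5.35 and 3.29 FPKM in lung, from 782 and 612 reads. In kidney and liver it had 1 or 2 reads per library, and in small intestine none. The ratio of lung to liver was 408 (139 to 1981), and the log2 difference was 2.38 (SE 0.14, adjusted p = 4.47e-06, limma with Benjamini-Hochberg adjustment). The log2 difference is small beside the ratio because most of the Muc5b values outside lung lie far below the pseudocount of 1.

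Muc5ac, the mucin of surface goblet cells and of the stomach surface, was at 0.257 and 0.165 FPKM in lung, from 27 and 22 reads. In small intestine it was at 0.407 in replicate 1, from 41 reads, and at 0 in replicate 2, where 0 reads allow an FPKM of up to 0.0246. Kidney and liver had no read. Lung and small intestine thus overlap. The ratio of pooled reads was 1.11 (0.721 to 1.73), and the exact permutation test of lung against the other 6 libraries gave a two-sided p = 0.107. Muc5ac did not pass the filter on low values. Without that filter its log2 difference was 0.19 (adjusted p = 0.235, limma with Benjamini-Hochberg adjustment). In lung, Muc5b exceeded Muc5ac in both libraries, at a mean ± SD of 4.32 ± 1.46 against 0.211 ± 0.0654 FPKM (n = 2).

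The small intestine library with Muc5ac also held genes of the stomach and of the glands of the upper duodenum. On a list of 10 such genes, chosen after their values were seen, the summed FPKM was 1496 in replicate 1 and 12.6 in replicate 2. Gkn3, a gastrokine, was at 419 and 4.13, and Tff2, a trefoil peptide of mucous glands, at 935 and 7.56. Gkn1 was at 30.6 and 0, and Muc6, the gland mucin at the end of the same mucin cluster, at 21.1 and 0.0660. Atp4b, a subunit of the proton pump of parietal cells, was at 0 in all libraries, and Tff1 and Gif were at no more than 0.230 in either small intestine library. Their part in the Muc5ac value was not tested.

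**Figure D3:**
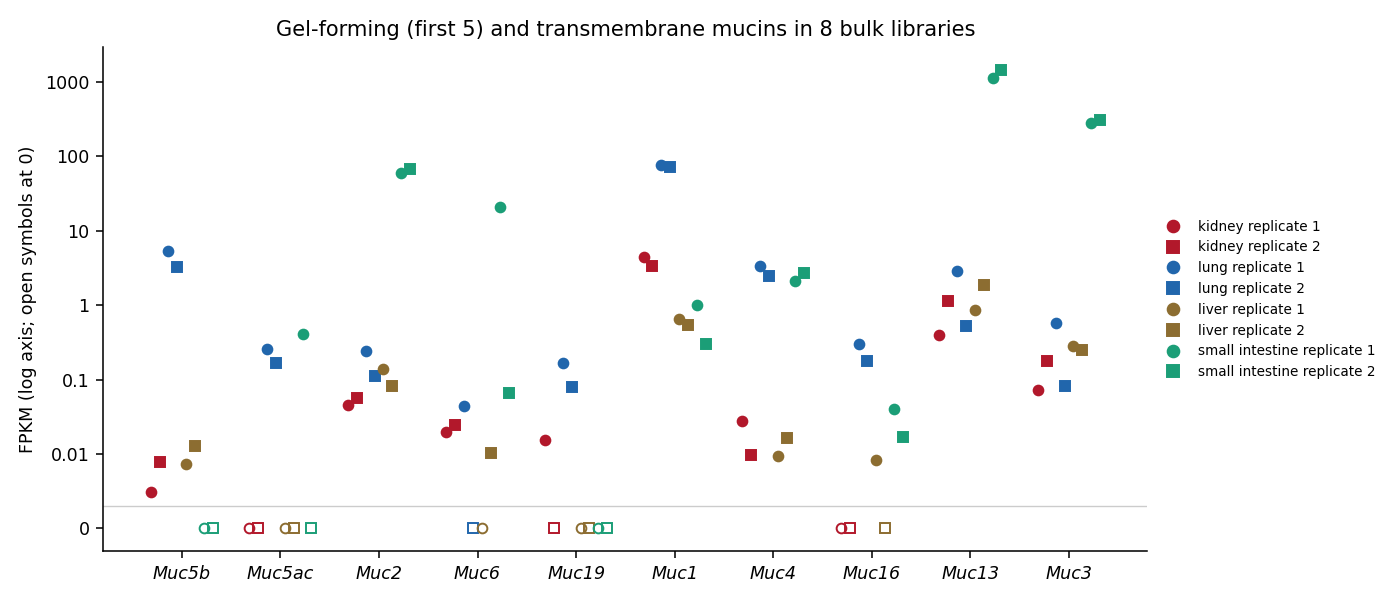
FPKM (log axis; open symbols at 0) of the 5 gel-forming and of 5 of the 7 membrane-bound mucins in each library, coloured by tissue. Muc5b and Muc1 are highest in lung, Muc2, Muc3 and Muc13 in small intestine, and Muc5ac and Muc6 have 1 small intestine library far above the other.

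Among the other mucins, Muc2, the gel-forming mucin of the intestine, was at 59.0 and 67.6 in small intestine and at 0.244 and 0.113 in lung. Muc19 was at 0.169 and 0.0795 in lung. The membrane-bound mucin with the highest level in lung was Muc1, at 77.6 and 71.5, with a log2 difference of 5.02. Muc4 was at 3.38 and 2.43 in lung and at a like level, 2.14 and 2.67, in small intestine. Muc16 was at 0.303 and 0.180 in lung. Of the 5 gel-forming mucins, 2 passed the filter, and Muc5b was called higher and Muc2 lower in lung. Of the 7 membrane-bound ones, 6 passed, and Muc1, Muc4 and Muc20 were called higher, Muc3 and Muc13 lower. Of all genes tested, 40.7% were called higher in lung and 8.26% lower. After median-of-ratios scaling 1 of the 6 was called higher, Muc1, and 3 lower, beside 14.6% and 16% of all genes.

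Ltf, the iron-binding protein of gland secretions and of the specific granules of neutrophils, was at 38.9 and 22.2 FPKM in lung. Elsewhere it was at 0.0811 and 0.0335 (kidney), 0.538 and 0.0562 (liver) and 0.526 and 0.179 (small intestine). The lung libraries stood apart from the rest, although liver replicate 1 and small intestine replicate 1 had more reads than the others, 17 each. Lung exceeded small intestine, the next tissue, 87.8-fold (58.9 to 137), the smallest ratio of the called members except Scgb1c1. The log2 difference was 4.64 (SE 0.25, adjusted p = 2.54e-06, limma with Benjamini-Hochberg adjustment). Trf, the serum transferrin of the same family, was at 49.4 and 44.1 in liver and at 2.13 and 2.35 in lung, and Meltf was at no more than 0.0140 in any library.

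The lung libraries differed in the members beyond counting error, and not all in the same direction. The ratio of replicate 1 to replicate 2 was 2.47 for Bpifb1 (95% counting interval 2.28 to 2.68), 2.44 for Bpifa1 (2.28 to 2.63) and 1.75 for Ltf (1.61 to 1.91). It was 1.63 for Muc5b (1.46 to 1.81), 1.55 for Scgb3a1 (1.48 to 1.62) and 1.12 for Scgb3a2 (1.09 to 1.15). Scgb1a1 went the other way, at 0.739 (0.735 to 0.743). For Scgb1c1 and Muc5ac the intervals, 0.655 to 1.57 and 0.857 to 2.88, include 1. Among the 7808 genes with 500 or more reads over both lung libraries, the middle 95% of ratios ran from 0.699 to 1.48. Bpifb1, Bpifa1, Ltf, Muc5b and Scgb3a1 lay above this range. So did Muc5ac, at 1.56 on 27 and 22 reads, with the interval given above that includes 1. Of the 7808 genes, 0.781% had a ratio at least as high as that of Bpifb1. Scgb1a1, Scgb3a2 and Scgb1c1 lay inside the range. With 2 libraries, differences between mice and between dissections cannot be told apart.

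Of the goblet cell programme, 6 genes had 20 or more reads over the lung libraries. All 6 had a ratio of replicate 1 to replicate 2 above 1, and for 4 of them, Tff2, Clca1, Agr2 and Zg16, the counting interval lay above 1. Tff2 was at 44.2 and 19.6 (ratio 2.26, 1.83 to 2.79), Clca1, a secreted goblet cell protein, at 6.32 and 3.39 (1.87, 1.52 to 2.30), and Agr2, a disulfide isomerase needed for mucin assembly, at 4.52 and 2.62 (1.73, 1.14 to 2.64). Of the 12 other secreted defence genes, 9 had ratios inside the middle 95% of deeply covered genes, from 1.04 for Lyz1, a lysozyme, to 1.43 for Pigr, the transporter of secretory antibodies. The other 3 lay above it, Chia1, an acidic chitinase, at 1.49, Lcn2, which binds iron siderophores, at 1.74 (1.65 to 1.83), and Dmbt1 at 8.70 on 41 and 6 reads. Several of these genes were far higher in small intestine than in lung, among them Agr2 at 200 and 170 FPKM, Clca1 at 110.2 and 118, Zg16 and Dmbt1. In lung, Zg16 had a ratio of 4.80. Other genes high in small intestine also had more reads in lung replicate 1 than in replicate 2, Muc13 with 86 and 20 reads (ratio 5.47), Tff3 with 18 and 1 and Muc3 with 11 and 2. Genes of ciliated cells were nearly equal between the lung libraries, with ratios from 0.884 for Foxj1 to 1.12 for Tekt1. The non-secreted club cell genes Cyp2f2, a cytochrome P450, and Cbr2, a carbonyl reductase, had ratios of 0.893 and 1.12. The part of any of these genes or their cells in the difference of the members was not tested.

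Genes of a list for neutrophils went the opposite way to Ltf. All 9 of that list were higher in lung replicate 2 and lay below the middle 95% of deeply covered genes. The median log2 ratio of the deeply covered genes was -0.08. The summed FPKM of the 9 neutrophil genes was 69.8 in replicate 1 and 408 in replicate 2, against 0.445 to 7.56 in the other libraries. Camp and Ngp, which with Ltf mark specific granules, were at 1.62 and 14.9 and at 2.01 and 31.4. S100a8, at 23.6 and 110.5, and S100a9, at 36.3 and 214, made up most of the sum. Mpo was at 0 in replicate 1. Ltf was the lower in replicate 2, where these genes were the higher, at 22.2 against 38.9.

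**Figure D4:**
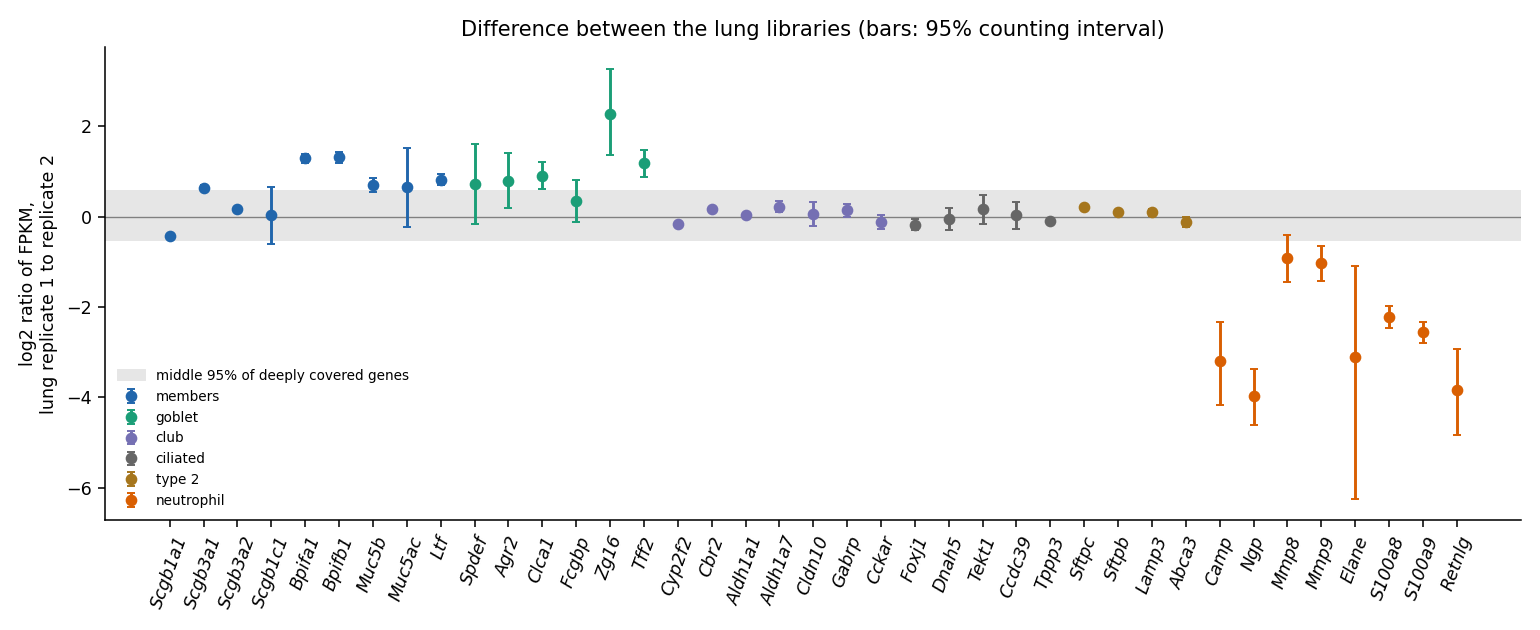
Log2 ratio of FPKM in lung replicate 1 to replicate 2 for the members and for listed genes with 20 or more reads over both libraries, with 95% counting intervals as bars and a grey band for the middle 95% of 7808 deeply covered genes. Bpifa1 and Bpifb1 lie near 1.3, above the band, Scgb1a1 lies at -0.44 inside it, and the neutrophil genes lie below it. Mpo, at 0 in replicate 1, is left out.

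Outside lung, Scgb1a1 was the only member well above the floor in every library. Kidney had 23.2 and 52.3 FPKM, liver 57.1 and 59.8, and small intestine 18.6 and 27.1. Liver was higher than small intestine in both libraries, with a log2 difference of 1.34 (SE 0.36, adjusted p = 0.0152, limma with Benjamini-Hochberg adjustment), where 7.89% of all genes were called. This was the only call for a member between tissues other than lung, and it was lost without liver replicate 1, liver replicate 2 or small intestine replicate 1, with log2 differences of 1.08 to 1.37 and adjusted p between 0.0733 and 0.111 in limma. In these fits the tissue left with 1 library is assumed to vary like the others. With limma-voom on the recovered reads of all 8 libraries the call was lost too (log2 difference 1.37, adjusted p = 0.0627). Scgb1a1 was not called between liver and kidney (log2 difference 0.73, adjusted p = 0.161, limma), where 6.9% of all genes were higher in liver. It was not called between kidney and small intestine (0.61, adjusted p = 0.209, limma), where 10.7% were higher in kidney.

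The level of Scgb1a1 outside lung is given beside that of other genes abundant in lung, as a description only. Only the members and the lists of airway and marker genes were searched, not all genes. Among these, 9 genes had a mean FPKM of at least 400 in lung and under 1% of that mean in each other library. This choice itself bounded their levels there. They are Scgb1a1, the members Scgb3a1 (1 to 8 reads per library outside lung) and Scgb3a2, 4 surfactant protein genes, Cbr2, and Ager of alveolar type 1 cells. Scgb1a1 stood at 0.0447% and 0.101% of its lung mean in kidney, where the medians of the 9 genes, itself included, were 0.0335% and 0.101%. It stood at 0.110% and 0.115% in liver, with medians of 0.154% and 0.119%, and at 0.0359% and 0.0521% in small intestine, with medians of 0.0359% and 0.0389%. In none of the 6 libraries was Scgb1a1 the lowest or the highest of the 9. The source of these reads was not tested. Cyp2f2, also a gene of hepatocytes, was at 458 and 405 in liver beside 761 and 852 in lung.

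**Figure D5:**
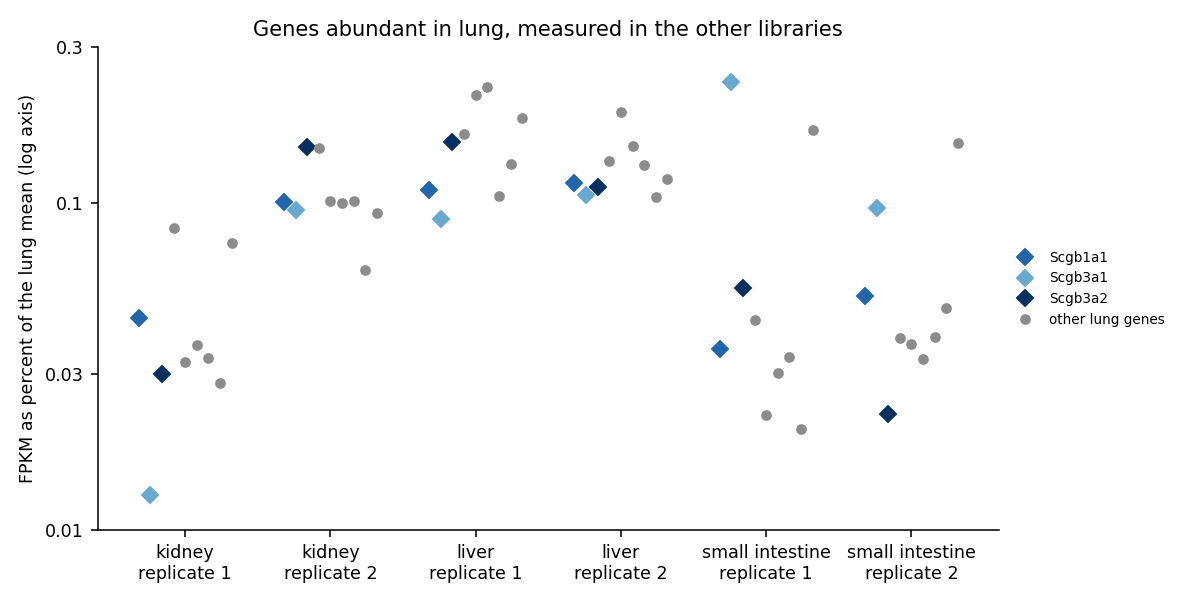
FPKM in each library outside lung as a percent of the gene's mean in lung (log axis). Shown are the 9 genes, among the members and lists only, with a lung mean of at least 400 and under 1% elsewhere. Scgb1a1 lies among the other genes in all 6 libraries, between 0.0359% and 0.115%, and kidney replicate 1 and both small intestine libraries have the lower medians.

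The lists of other genes of the airway system were set beside the members. A call against the mean of the other 3 tissues does not mean that lung was the highest tissue. Of all genes tested, 40.7% were called higher and 8.26% lower in lung, or 14.6% and 16% after median-of-ratios scaling, and the number of a list called under that scaling is given second. Of 8 non-secreted club cell genes, 7 passed the filter and were called higher in lung (5 after scaling), with a median log2 difference of 2.5001. Cbr2 was at 3093 and 2757 in lung and at most 4.77 elsewhere. For 4 of the 7, another tissue had a higher mean than lung. Aldh1a1 and Aldh1a7 had theirs in liver, at 257 and 219 beside 221 and 216 in lung for Aldh1a1. The log2 difference of Aldh1a7 was 1.02 as deposited and -0.13 after scaling, a change of direction. Cldn10 and Cckar had theirs in kidney, at 61.3 and 77.4 beside 8.42 and 8.07 in lung for Cldn10. Of 9 goblet programme genes, 9 passed, none was called higher under either scaling and 4, Zg16, Fcgbp, Tff3 and Foxa3, were called lower in lung (5 after scaling). The first 3 are also products of intestinal goblet cells. Of 12 other secreted defence genes, 11 passed, 9 were called higher (9 after scaling) and Pigr and Dmbt1 were called lower. For 2 of the 9, small intestine was higher than lung, Lyz1 at 1910 and 3323 beside 299 and 288, and Reg3g at 430.5 and 501 beside 137 and 121. Of 8 transcription factors and Notch genes, 6 were called higher in lung (4 after scaling) and none lower, and 3 of the 8 would not have entered the test without lung. The calls came with log2 differences of 5.77 for Nkx2-1, 2.49 for Foxa1, 2.71 for Foxa2 and 2.46 for Sox2. The Notch genes were nearer the threshold, Notch2, a receptor, at 1.17 and Hes1, a target of the pathway, at 1.27 (adjusted p = 0.0385, limma with Benjamini-Hochberg adjustment). After scaling they were at 0.56 and 0.12 and were not called. Elf3 and Ehf were not called, with log2 differences of 0.55 and 0.77 as deposited and -0.33 and -0.04 after scaling. All 5 ciliated, 4 alveolar type 2, 4 alveolar type 1 and 7 neutrophil genes that passed were called higher in lung, and 3, 3, 4 and 6 after scaling. In the same order, 4, 1, 2 and 5 of them would not have entered the test without lung. Abca3 had a higher mean in kidney, and Mmp9 in small intestine, than in lung.

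Markers of cells of the upper airway and its surroundings were low in lung. The summed FPKM of 4 basal cell genes was 2.05 in both lung libraries, with Krt5 at 1.12 and 0.955, and that of 4 neuroendocrine genes was 1.84 and 1.46. The sum of 5 airway cartilage genes was 0.395 and 0.162, and that of 4 genes of the squamous oesophagus 0.0562 and 0.133. Of 6 genes of lacrimal, salivary or nasal glands, 4 were at 0 in every library and Amy1, at 42.4 and 42.8 in liver, made up most of the sum of 2.44 and 2.69 in lung.

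The genes most like 2 members were sought by Pearson's r of log2(FPKM + 1) over the 8 libraries, among 5254 other genes with a mean FPKM of 10 or more in lung. The most like Scgb1a1 were Sftpc (r = 0.999), Sftpb, Sftpa1, Cbr2 and Sftpd, with r from 0.997 to 0.998 for the last 4. The most like Bpifa1 were AU040972 (r = 0.998), Tspan11, 1700016K19Rik, Fam216b and 4833427G06Rik, with r from 0.997 to 0.998. The 8 points of each r include replicates of the same tissue and mainly contrast lung with the rest, so they are a description only.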

How the data were processed

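RNA of bulk tissue was sequenced in 8 libraries, 2 each of kidney, lung, liver and small intestine. The sample titles gave the tissue and the replicate number. By the study's methods and the submitters' processing notes, the authors selected reads by index with bbduk, mapped them with STAR 2.5.3a to the mouse genome of Ensembl release 75 (GRCm38) and deposited FPKM values computed by DESeq2 (its fpkm function). The read counter, its use of strand and its treatment of reads with several matches are not given in the sources used here. Coordinates and exon lengths came from GENCODE M21 (GRCm38), in which 51844 of the 52195 symbols (99.3%) matched a single gene. Multiplied by exon length, 94.5% to 96.1% of the low values (up to 50 reads) per library were whole reads within 0.02, which gave the depth and the reads per gene. A value of 0 was read as up to 3 reads. Without molecular identifiers in use, intervals (exact Clopper-Pearson, 95%) and floors cover counting error only.

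Values were transformed to log2(FPKM + 1). The 16328 genes that reached an FPKM of 1 in 2 or more libraries were fitted over all 8 libraries with limma 3.58.1 (lmFit, eBayes with a trend) in R 4.3.3, without covariates, and p-values were adjusted by Benjamini-Hochberg over all genes tested. Figures were drawn with matplotlib 3.10.9, and other values came from scipy 1.17.1, pandas 2.3.3 and numpy 2.4.6 in Python 3.11.15. The limma step was tested on simulated data. Alternatives changed the pseudocount, the filter, the scaling, the trend, the replicate block, the libraries included and the use of recovered reads (limma-voom).

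The members and lists were chosen with earlier results of these data known. Named were all members, genes of their families at 1 FPKM or more in a library, genes of the fixed lists, and the 5 genes most like Scgb1a1 and Bpifa1. Other family members named, the list of stomach and duodenal gland genes, the genes abundant in lung and the motifs were chosen after values or sequences were seen.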

Additional observations from a re-analysis of the deposited data

How the results depend on the processing

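The 8 members tested were called higher in lung, against the mean of the other tissues and against each tissue alone, in all 64 fits (4 comparisons, main settings and alternatives). Muc5ac was tested only without the filter, with the value given above. The log2 differences moved with the scale. Against the mean of the other 3 tissues, in the 8 settings that kept all libraries, Muc5b ranged from 1.70 with median-of-ratios scaling to 9.29 with limma-voom on recovered reads. Scgb1a1 ranged from 9.26 to 10.80 there. Over all 64 fits the ranges were 1.69 to 10.3 for Muc5b and 8.11 to 11.5 for Scgb1a1. The count of all genes called higher in lung was 2387 with median-of-ratios scaling against 6652 as deposited, and the median of all genes was -0.02 against 0.82. Between tissues other than lung, 1 member (Scgb1a1) was called higher in liver than in small intestine, a count that was 2 with median-of-ratios scaling, which added Scgb3a2, 0 with limma-voom, and 0 to 1 when single libraries were left out. With a pseudocount of 0.1, Scgb1c1 was called lower in liver than in kidney and higher in kidney than in small intestine, 1 member each against 0. Leaving out single libraries gave 0 to 1 for liver over kidney (Scgb1a1, without kidney replicate 2) and 0 to 1 for kidney over small intestine (Scgb1a1, without kidney replicate 1). The members took 2.29% and 2.98% of the reads of the lung libraries, against 8.83% and 11.8% of the summed FPKM. The ratio of the lung libraries, recomputed with median-of-ratios scaling and with equal sums (alternatives chosen after seeing the data), was 0.773 and 0.734 for Scgb1a1, and no member changed direction.

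Same-numbered libraries of different tissues did not deviate together, with correlations from -0.217 to 0.0528 over the 6 pairs of tissues. The replicate numbers were therefore not taken to pair the samples. The correlations cannot show whether libraries share a mouse, since the numbers need not follow the mice. With the replicate number as a block, 8 of 8 members were again called higher in lung, and the calls of members in other pairs of tissues stayed as they were.

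Depth limits the members outside lung. Apart from Scgb1a1, no member had more than 41 reads in any library there, and with 2 libraries per tissue the spread between mice is poorly known.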
